A study of Mus musculus with 11 samples.

Results

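The coagulation and complement factors are 39 genes, chosen by name, for plasma proteins of blood clotting, its control and the complement system. Of these, 38 had a row among the 36788 gene identifiers of the liver RNA-seq table, 18 of them for coagulation and 20 for complement. The 39th listed name, Klkb1 (plasma prekallikrein), matched no row by its identifier and was not analysed here. All 38 passed the filter on low values (a mean of at least 0.5 CPM over the 11 libraries), which left 12733 genes for testing. Values are in CPM, the reads on a gene for every 1000000 reads of its library. The libraries were made from whole livers of WT C57BL/6 female mice over 12 weeks old, each library from a separately numbered mouse. Every animal, controls included, had been ovariectomized (OVX) and fed a high-fat diet (HFD). The FSH group (mice 1, 2, 3, 4 and 6) received daily injections of follicle-stimulating hormone, the pituitary hormone that drives ovarian follicle growth, and the saline group (mice 1 to 6) received saline. The comparison asks how FSH given to animals without ovaries relates to liver transcripts.

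Coagulation is a chain of proteases that activate one another and end in thrombin, which turns soluble fibrinogen into fibrin. Complement is a similar chain that tags microbes and forms pores in membranes. It is entered through antibodies (classical route), sugars (lectin route) or spontaneous turnover (alternative route), and all routes meet at C3. Hepatocytes secrete most of these proteins into plasma, whereas C1q is made mainly by macrophages and factor VIII and von Willebrand factor by endothelial cells. Fibrinogen, C3 and several others are acute-phase proteins, whose synthesis rises with interleukin-6 and with glucocorticoids.

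Among the 38 factors, 6 were lower in FSH livers at an adjusted p under 0.05 (limma on log2(CPM + 0.5), Benjamini-Hochberg over all genes tested) and 0 were higher. Those were the 3 fibrinogen chains Fga, Fgb and Fgg, the mannose-binding lectin Mbl1 and the pore subunits C8a and C8b. This was 15.8% of the factors, against 10.6% of all genes called in either direction, 4.41% called lower and 6.19% called higher. The count rested on single livers, since only 2 factors were called without FSH mouse 1, FSH mouse 3 or saline mouse 5. With an added threshold of an absolute log2 fold change over 1, 0 of the 38 were called, against 1.83% of all genes. The counts of 0, for higher calls and for calls past both thresholds, were also 0 with voom and with edgeR on the recovered reads. At an unadjusted p under 0.05, 10 of the 38 factors were called in either direction, close to the 25.1% of all genes. All 10 were lower, against 10.5% of all genes lower and 14.6% higher. For 4 factors (Fga, Fgb, Fgg and Mbl1) every FSH liver lay below every saline liver, against 2.72% of all genes, and for 0 factors every FSH liver lay above, against 3.95%. Without the filter on low values, in a fit over all identifiers, Mbl1 alone of the 6 kept its call (limma adjusted p = 0.00897), with 0.0507 for Fgg, 0.0608 for C8a, 0.0717 for C8b, 0.123 for Fga and 0.155 for Fgb.

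Most factors lay close to no change. The log2 fold changes of the 38 ran from -0.74 to 0.19, 25 of them negative and 13 positive, with a median of -0.07 beside 0.02 over all genes tested. For 27 of the 38 the change was under 0.25 in size. The 18 coagulation genes had a median of -0.01, with 9 negative and 9 positive values, and 3 calls. The 20 complement genes had a median of -0.14, with 16 negative and 4 positive values, and also 3 calls. Under median-ratio scaling, which shifted the median of all genes by -0.027, 14 coagulation genes were negative and 4 positive, and over all 38 factors 31 were negative and 7 positive, so an even balance of signs was not stable to scaling. In bulk tissue, fewer cells of a type and less RNA per cell cannot be told apart.

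**Figure D1:**
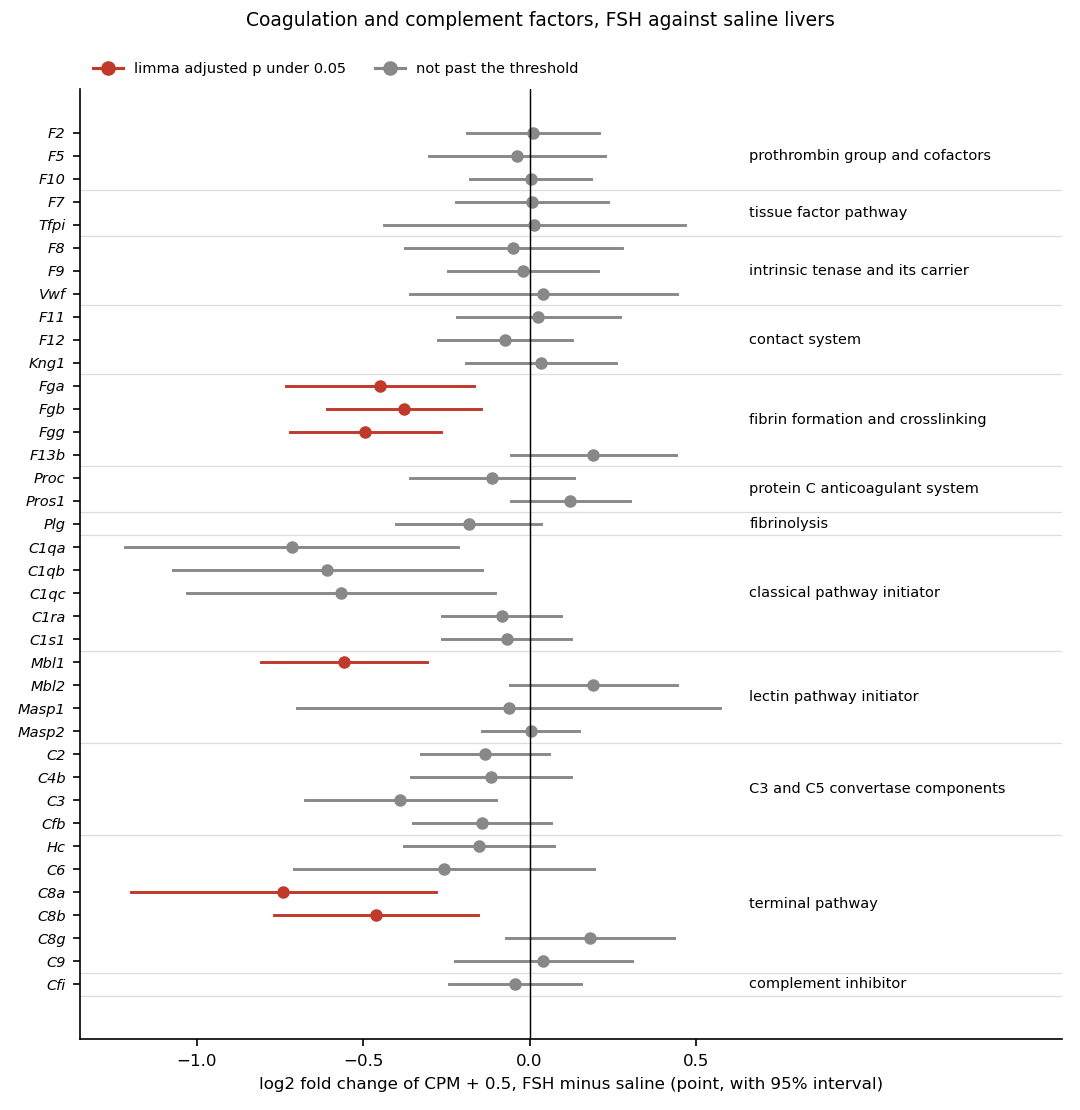
Log2 fold change of CPM + 0.5 (FSH minus saline, x axis) for the 38 coagulation and complement factors, grouped by role, with points for the estimate and lines for the 95% interval of 5 FSH against 6 saline livers. Red marks the 6 factors with a limma adjusted p under 0.05, all lower in FSH livers, and 27 of the points lie within 0.25 of no change.

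Depth ranged from 11410596 to 19909327 reads in the FSH group and from 10801891 to 16077442 in the saline group. At this depth the scarcest factors were still read in each library (Tfpi 27 to 92, Vwf 36 to 80 and F8 48 to 119 reads). No 2 libraries of a group agreed within sampling noise, the closest pair being FSH mice 3 and 4. Hepatocyte markers summed to between 12.09 and 14.38% of reads in FSH livers and between 11.36 and 14.86% in saline livers. Limma called 0 of the 10, against 10.6% of all genes. The labelled tissue thus carried its defining transcripts in all libraries.

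In saline livers, per kilobase of exon, the factors spanned a 9187-fold range of mean level. Fgg stood first with 1920 CPM per kilobase, followed by Fga with 1330, C3 with 1270, Fgb with 1160, Kng1 with 916, Plg with 831 and F2 with 625. Within single saline livers Fgg was above Fga, and Fga above Fgb, in 6 of 6. The place of C3 (1091 to 1407) was mixed, with Fga above it in 2 of 6 livers and Fgb below it in 5 of 6. Mbl2 followed C3 among complement transcripts at 562 CPM per kilobase, above Cfb in 4 of 6 saline livers. Divided by the longest transcript instead, the range over the factors was 6079-fold, Kng1 at 1320 ranked ahead of C3 at 1270 and Fgb at 1160, and Vwf was at 0.38 CPM per kilobase. The least abundant were Tfpi with 0.754, F8 with 0.577 and Vwf with 0.209 CPM per kilobase, the last 2 being transcripts that endothelial cells make. The 38 factors together took 3.57 to 4.289% of all reads in saline livers and 3.13 to 3.777% in FSH livers.

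Fibrinogen is built from the Aα, Bβ and γ chains encoded by Fga, Fgb and Fgg, which lie side by side on chromosome 3 (chr3:83007724-83049863, GRCm38, GENCODE M21), with Fgb on the strand opposite to the others. All 3 chains fell with FSH. Their promoters are shown because the 3 genes moved together and all carry letters that regulators of acute-phase genes recognise. The windows run from 250 bases before to 50 after the RefSeq start (GRCm38.p6), 5′ to 3′ on each gene's own strand. They lie at chr3:83025903-83026202 (plus strand) for Fga, chr3:83049814-83050113 (minus) for Fgb and chr3:83007474-83007773 (plus) for Fgg. Capitals mark, on either strand, GTTAAT (core of an HNF1 site), TTGCNNAA (C/EBP) and CTGGGA (interleukin-6 response element):
Fga: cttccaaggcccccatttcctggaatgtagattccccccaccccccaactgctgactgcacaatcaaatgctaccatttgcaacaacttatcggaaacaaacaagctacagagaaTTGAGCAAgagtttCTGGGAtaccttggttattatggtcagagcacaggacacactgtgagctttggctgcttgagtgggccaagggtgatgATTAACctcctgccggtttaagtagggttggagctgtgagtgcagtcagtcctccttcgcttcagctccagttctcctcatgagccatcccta
Fgb: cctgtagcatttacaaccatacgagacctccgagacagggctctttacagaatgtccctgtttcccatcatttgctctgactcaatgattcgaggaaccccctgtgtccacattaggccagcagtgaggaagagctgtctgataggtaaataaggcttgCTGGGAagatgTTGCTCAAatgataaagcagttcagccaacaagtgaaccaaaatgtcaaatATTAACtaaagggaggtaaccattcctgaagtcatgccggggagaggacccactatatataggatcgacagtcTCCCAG
Fgg: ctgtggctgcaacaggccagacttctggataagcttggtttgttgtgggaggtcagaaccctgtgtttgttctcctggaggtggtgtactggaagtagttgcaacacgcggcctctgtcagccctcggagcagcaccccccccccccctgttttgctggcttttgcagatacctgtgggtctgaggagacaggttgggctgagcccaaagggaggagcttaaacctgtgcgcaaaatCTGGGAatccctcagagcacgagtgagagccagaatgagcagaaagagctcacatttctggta

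Counting the start as base 1, Fga held GTTAAT at -43, TTGCNNAA at -135 and CTGGGA at -121. The window of Fgb held the same motifs, GTTAAT at -29, TTGCNNAA at -80 and CTGGGA at -91 and 45. The window of Fgg held CTGGGA at -13 and neither of the others. TGTTCT, part of the glucocorticoid receptor element, was also searched and occurred in Fgg at -183 only, not in Fga or Fgb, and TATAAA in none of the 3. None of these matches overlapped another. Over 32851 RefSeq promoter windows of this length, 7.099% held GTTAAT, 10.8% TTGCNNAA, 31.78% CTGGGA, 18.97% TGTTCT and 13.62% TATAAA. Of the 28 factors with a RefSeq window, 8 held GTTAAT, 8 TTGCNNAA, 15 CTGGGA, 12 TGTTCT and 3 TATAAA. These are matches of letters, not measured binding sites.

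Fgg, the γ chain, measured 2950, 2647, 2764, 2784 and 3101 CPM in FSH mice 1, 2, 3, 4 and 6, and between 3422 and 4733 CPM in the saline mice (median 4026). Every FSH liver was below every saline liver. The means were 2849 ± 177.5 CPM (SD, n = 5) and 4027 ± 467.2 (SD, n = 6), a change of -0.49 on the log2 scale (SE 0.10, limma adjusted p = 0.00562, two-sided exact permutation p = 0.00433 over 462 splits of the livers, of which the smallest possible is 0.00216). Gm30097 overlaps Fgg on the opposite strand, and whether the counting used strand is not given in the sources used here.

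Fgb, the Bβ chain, measured 3416, 3151, 3294, 3428 and 3573 CPM in FSH mice 1, 2, 3, 4 and 6, and between 3656 and 5139 CPM in saline livers (median 4389). The groups again did not overlap, with means of 3372 ± 158.3 CPM (SD, n = 5) and 4402 ± 533.4 (SD, n = 6). Its log2 fold change was -0.38 (SE 0.10, limma adjusted p = 0.0289, exact permutation p = 0.00433). In limma fits without a single liver the adjusted p of Fgb passed 0.05 in 6 cases, at 0.0672, 0.0598, 0.0682 and 0.0576 without FSH mouse 1, 2, 3 or 4, and at 0.0529 and 0.0543 without saline mouse 2 or 5. The log2 fold change of Fgb stayed between -0.43 and -0.33 in all 11 such fits.

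Fga, the Aα chain, measured 2791, 3063, 2596, 2747 and 3284 CPM in FSH mice 1, 2, 3, 4 and 6, and between 3299 and 5390 CPM in saline livers (median 3921). The highest FSH liver (mouse 6) and the lowest saline liver (mouse 1) nearly met, and saline mouse 2 stood well above the rest. The means were 2897 ± 274.6 CPM (SD, n = 5) and 3994 ± 751.1 (SD, n = 6). The log2 fold change of Fga was -0.45 (SE 0.12, limma adjusted p = 0.0328, exact permutation p = 0.00866). It was -0.36 without saline mouse 2 (limma adjusted p = 0.0445), and the adjusted p of Fga passed 0.05 without FSH mouse 1, 3 or 4 (0.0833, 0.0865 and 0.0759) and without saline mouse 5 or 6 (0.0543 and 0.0554).

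**Figure D2:**
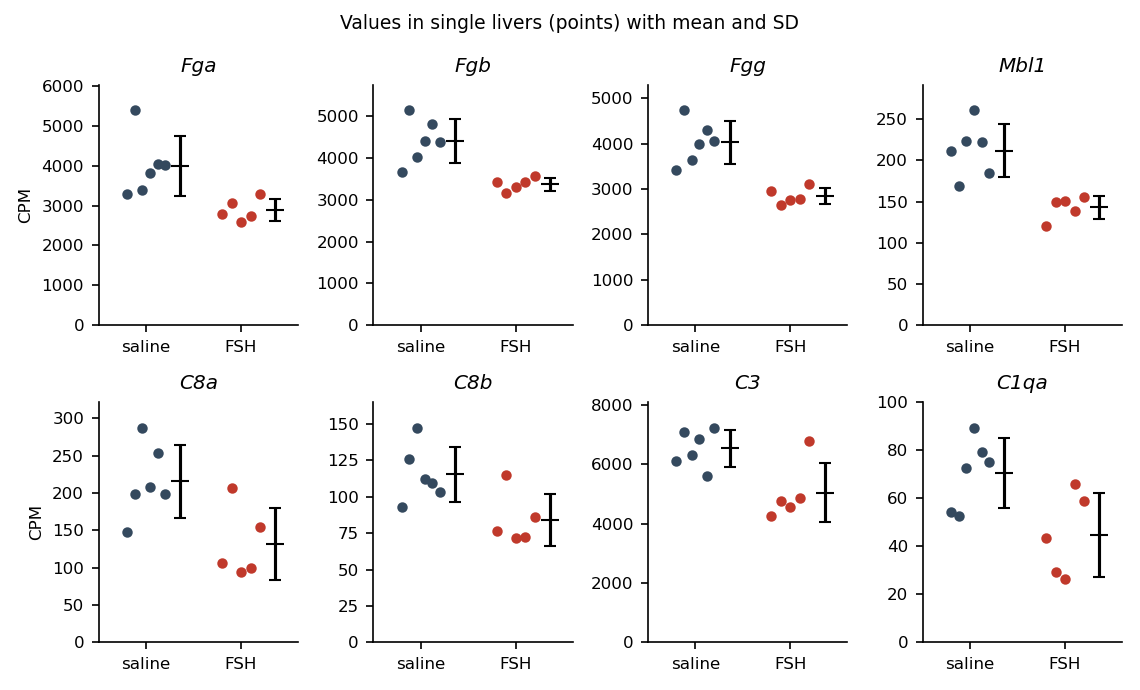
CPM in single livers (points, 6 saline and 5 FSH) with mean and SD beside them, for the 6 called factors and for C3 and C1qa, which did not pass the test. The groups do not overlap for Fga, Fgb, Fgg and Mbl1, and overlap for C8a, C8b, C3 and C1qa.

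Summed over the 3 chains, fibrinogen transcripts took 0.8654 to 0.9958% of reads in FSH livers and 1.038 to 1.526% in saline livers. The other 15 coagulation genes together summed to 10690 to 13000 CPM in FSH and 11550 to 12590 CPM in saline livers, ranges that overlap. The balance among the chains differed little in size between the groups. Per kilobase of exon, Fga made up 29.97% of the 3 chains in FSH and 29.98% in saline livers, Fgb 27.61 and 26.26%, and Fgg 42.42 and 43.76%. Ratios between factors are given as descriptions, with no test, since the pairs were chosen after the values were seen. The log2 ratio of Fga to Fgb differed by -0.07 between the group means. That of Fgg to Fgb differed by -0.12, with non-overlapping ranges of -0.30 to -0.20 in FSH and -0.16 to -0.10 in saline livers.

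**Figure D3:**
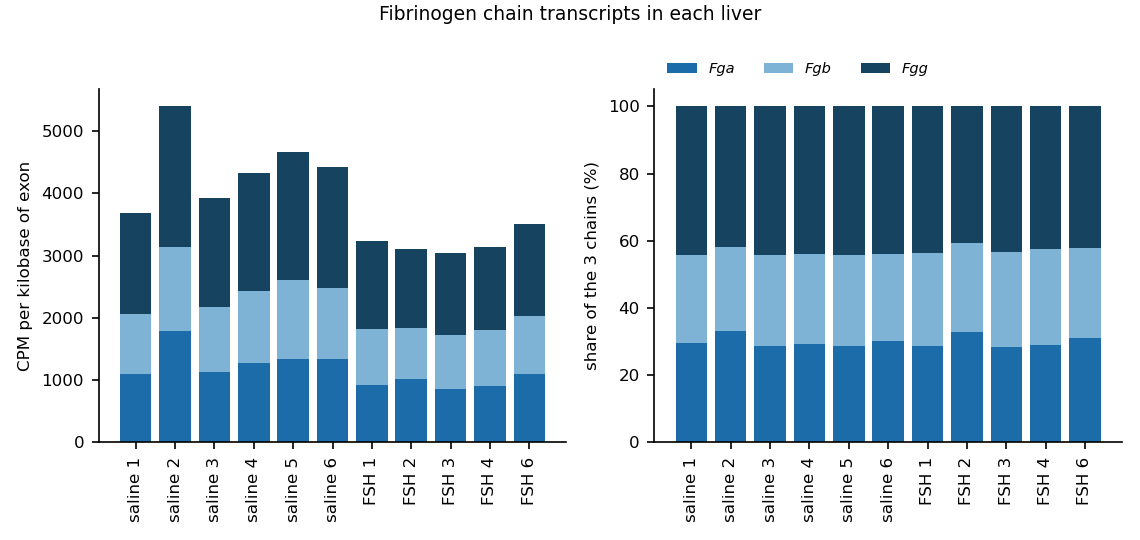
Fibrinogen chain transcripts in each liver, as stacked CPM per kilobase of exon (left) and as the share of each chain in percent (right), for the 6 saline and 5 FSH livers. The stacks are lower in all 5 FSH livers, while the mean share of Fgb is 27.61% in FSH and 26.26% in saline livers and that of Fgg 42.42 and 43.76%.

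F13b, the carrier subunit of the factor that crosslinks fibrin, measured 234.8 ± 28.21 CPM in FSH (SD, n = 5) and 206 ± 28.59 in saline livers (SD, n = 6), which did not pass the test (log2 fold change 0.19, 95% interval -0.06 to 0.44, limma adjusted p = 0.304). The log2 ratio of Fgg to F13b was lower by -0.69 in FSH livers.

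The proteases and cofactors that lead to thrombin showed no called change. Prothrombin, F2, averaged 2894 CPM in FSH and 2869 CPM in saline livers (log2 fold change 0.01, 95% interval -0.19 to 0.21). Factor X (F10) was at 667.3 and 665.4 CPM and its cofactor F5 at 378.8 and 392.2 CPM, with log2 fold changes of 0.00 and -0.04. The lower bounds of the 95% intervals, -0.18 for F10 and -0.30 for F5, were nearer to 0 than the smallest fibrinogen estimate of -0.38. Factor VII (F7), which starts clotting with tissue factor, averaged 140.5 and 139.4 CPM, and its inhibitor Tfpi 4.235 and 4.119 CPM.

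In the amplifying loop, F9 averaged 177.4 CPM in FSH and 181.1 CPM in saline livers. Its cofactor F8 averaged 5.515 and 5.719 CPM and Vwf, the carrier of factor VIII in plasma, 3.577 and 3.361 CPM. For F8 and Vwf the intervals were wider (-0.38 to 0.28 and -0.36 to 0.44 on the log2 scale), so changes within these bounds were not detectable here. The contact factors F11 (38.49 and 37.8 CPM), F12 (731.7 and 767.8 CPM) and Kng1 (3046 and 2978 CPM) had log2 fold changes of 0.03, -0.07 and 0.04. Kng1, kininogen, has the close paralog Kng2, and the counting may have split reads between them.

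The anticoagulant protein C, Proc, averaged 690.8 and 741.8 CPM and its cofactor Pros1 59.04 and 54.16 CPM, with log2 fold changes of -0.11 and 0.12. Plg, plasminogen, which dissolves fibrin once activated, averaged 2718 ± 263 CPM in FSH (SD, n = 5) and 3085 ± 280.6 in saline livers (SD, n = 6). Its log2 fold change of -0.18 did not pass the test (95% interval -0.40 to 0.04, limma adjusted p = 0.259).

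On the complement side, Mbl1 gave the smallest p of all 38 factors. Mannose-binding lectins bind sugars on microbes and start the lectin route with the proteases Masp1 and Masp2. Mbl1 (chr14:41151458-41159601) measured 120, 150, 151, 138 and 155 CPM in FSH mice 1, 2, 3, 4 and 6, and between 169 and 261 CPM in saline livers (median 217). All FSH livers were below all saline livers, with means of 143 ± 14.16 CPM (SD, n = 5) and 211.9 ± 32.31 (SD, n = 6). The log2 fold change was -0.56 (SE 0.11, limma adjusted p = 0.00464, exact permutation p = 0.00433), and it passed the test in each of the 11 fits without a single liver.

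Its paralog Mbl2 was not called. Mbl2 measured 622, 558, 858, 713 and 771 CPM in FSH mice 1, 2, 3, 4 and 6, and between 530 and 691 CPM in saline livers (median 620). The groups overlapped, with means of 704.5 ± 118.7 CPM (SD, n = 5) and 611.5 ± 55.25 (SD, n = 6), and the log2 fold change of 0.19 did not pass the test (95% interval -0.06 to 0.44, limma adjusted p = 0.308). The log2 ratio of Mbl1 to Mbl2 ranged from -2.50 to -1.89 in FSH and from -1.72 to -1.28 in saline livers, a difference of -0.75 between the means. The protease Masp2 was nearly level, at 233.1 ± 7.639 CPM in FSH (SD, n = 5) and 232.6 ± 6.915 in saline livers (SD, n = 6). Masp1 averaged 18.48 and 19.79 CPM, with a 95% interval of -0.70 to 0.57 for its log2 fold change.

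The terminal pathway forms the membrane pore from C5, C6, C7, C8 and C9. C8a and C8b encode the α and β subunits of C8 and lie within one stretch of chromosome 4 (chr4:104766317-104876398), whereas C8g, the γ subunit, lies on chromosome 2. Both genes fell with FSH, so their promoters are shown beside those of fibrinogen, with the same capitals (RefSeq, GRCm38.p6, chr4:104876349-104876648 on the minus strand for C8a and chr4:104766067-104766366 on the plus strand for C8b):
C8a: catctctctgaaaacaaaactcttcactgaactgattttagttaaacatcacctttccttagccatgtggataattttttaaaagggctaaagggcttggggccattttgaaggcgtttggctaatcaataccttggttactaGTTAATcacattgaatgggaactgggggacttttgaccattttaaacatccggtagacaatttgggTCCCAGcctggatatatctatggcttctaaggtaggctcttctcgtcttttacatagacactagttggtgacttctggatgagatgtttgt
C8b: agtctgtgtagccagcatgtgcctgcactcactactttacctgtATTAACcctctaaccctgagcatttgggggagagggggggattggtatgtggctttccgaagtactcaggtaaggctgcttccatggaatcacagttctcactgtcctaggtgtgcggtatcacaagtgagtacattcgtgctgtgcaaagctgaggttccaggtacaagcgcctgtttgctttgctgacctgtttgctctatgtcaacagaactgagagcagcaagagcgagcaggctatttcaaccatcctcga

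The C8a window held GTTAAT at -107 and CTGGGA at -41, and that of C8b held GTTAAT at -206. Neither TTGCNNAA nor TGTTCT nor TATAAA was found in either window.

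C8a measured 106, 207, 94.4, 98.9 and 154 CPM in FSH mice 1, 2, 3, 4 and 6, and between 147 and 287 CPM in saline livers (median 203). Here FSH mice 2 and 6 reached into the saline range while the other FSH livers lay below it. The means were 132.1 ± 48.16 CPM (SD, n = 5) and 215.3 ± 48.72 (SD, n = 6). The log2 fold change was -0.74 (SE 0.20, limma adjusted p = 0.0305, exact permutation p = 0.026). The call for C8a was lost without FSH mouse 1, 3 or 4 (limma adjusted p 0.0863, 0.0849 and 0.08) and without saline mouse 3 or 5 (0.0667 and 0.0595). Gm17662 overlaps C8a on the opposite strand.

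C8b measured 76.2, 115, 71.7, 72.3 and 86.1 CPM in FSH mice 1, 2, 3, 4 and 6, and between 93.3 and 148 CPM in saline livers (median 111). FSH mouse 2 was again the liver that reached into the saline range. The means were 84.21 ± 18.06 CPM (SD, n = 5) and 115.5 ± 19.1 (SD, n = 6). The log2 fold change was -0.46 (SE 0.14, limma adjusted p = 0.0417, exact permutation p = 0.0216). The call ended without most single livers, since the adjusted p of C8b was over 0.05 without FSH mouse 1, 3, 4 or 6 (0.108, 0.109, 0.105 and 0.0523) and without saline mouse 2, 3, 4 or 5 (0.0764, 0.0871, 0.0637 and 0.0575). It also ended without an intensity trend in limma (adjusted p = 0.0655).

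C8g did not pass the test and was positive in sign, at 572.5 ± 50.34 CPM in FSH (SD, n = 5) and 509.2 ± 86.41 in saline livers (SD, n = 6), a difference of 0.18 on the log2 scale (SE 0.11, limma adjusted p = 0.346). Fbxw5 overlaps C8g on the opposite strand, as Slc22a3 does Plg and Tardbp does Masp2, among others. Since the strand setting is not given, the counts of C8g, Plg and Masp2 may include reads of these neighbours. The log2 ratio of C8a to C8g was lower by -0.92 in FSH livers and that of C8b to C8g by -0.64, with ranges that overlapped between the groups. Of the other terminal components, Hc (complement C5) averaged 508.8 CPM in FSH and 565.2 CPM in saline livers, C6 10.19 and 11.72 CPM, and C9, which lines the pore, 131.3 and 126.8 CPM. Their log2 fold changes of -0.15, -0.26 and 0.04 did not pass the test.

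C3, on which all complement routes converge, was the most abundant complement transcript. It measured 4249, 4750, 4569, 4867 and 6781 CPM in FSH mice 1, 2, 3, 4 and 6, and between 5610 and 7237 CPM in saline livers (median 6581). FSH mice 1 to 4 lay below all saline livers, and FSH mouse 6 lay inside the saline range. The means were 5043 ± 998.8 CPM (SD, n = 5) and 6534 ± 632.9 (SD, n = 6). The log2 fold change of C3 was -0.39 (SE 0.13) and did not pass the test (limma adjusted p = 0.0644, exact permutation p = 0.0195). Without FSH mouse 6 it was -0.50 (limma adjusted p = 0.00797), and without FSH mouse 1 it was -0.33 (0.177). Of the 11 fits without a single liver, C3 passed only in the 1 without FSH mouse 6. The microRNA gene Mir6978 lies within C3.

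The partners of C3 in the convertases, the enzymes that cut C3 and C5, all had small negative values that did not pass the test. C2 averaged 88.79 CPM in FSH and 97.49 CPM in saline livers, C4b 1676 and 1820 CPM, and Cfb (factor B of the alternative route) 1347 and 1484 CPM, with log2 fold changes of -0.13, -0.12 and -0.14. Cfi, the protease that inactivates C3b and C4b, averaged 754.7 and 781.1 CPM. C4b has the close paralog C4a, as C1ra has C1rb and C1s1 has C1s2, so reads of these pairs may have been split.

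C1q, which binds antibodies and opens the classical route, is assembled from the chains of C1qa, C1qb and C1qc, neighbours on chromosome 4 (chr4:136880129-136898803). C1qa measured 43.6, 29.1, 26.5, 65.8 and 58.7 CPM in FSH mice 1, 2, 3, 4 and 6, and between 52.7 and 89.4 CPM in saline livers (median 73.8). FSH mice 4 and 6 lay inside the saline range and the other FSH livers below it. The group means for FSH and saline were 44.75 and 70.52 CPM for C1qa, 36.84 and 54.42 CPM for C1qb, and 35.19 and 51.04 CPM for C1qc. The log2 fold changes of C1qa, C1qb and C1qc were -0.71, -0.61 and -0.57, larger in size than those of the fibrinogen chains, but none passed the test (limma adjusted p = 0.0522, 0.0733 and 0.0948). Without FSH mouse 4, the FSH liver with the highest values, all of them did, with limma adjusted p of 0.0228 for C1qa, 0.0314 for C1qb and 0.0352 for C1qc. Without FSH mouse 3, the FSH liver with the lowest values, the limma adjusted p were 0.137, 0.184 and 0.23. In the 11 fits without a single liver C1qa passed in 4, and C1qb and C1qc in 1 each. C1qa also passed without FSH mouse 6 (0.0286) and without saline mouse 1 or 2 (0.0487 and 0.0428).

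The hepatocyte-made proteases that sit on C1q did not show this spread. C1ra averaged 291.5 ± 20.72 CPM in FSH (SD, n = 5) and 309 ± 22.78 in saline livers (SD, n = 6), and C1s1 459.3 ± 17.83 and 483.6 ± 54.04 CPM. Markers of Kupffer cells and other macrophages had values of the same sign as C1q: all 12 had negative log2 fold changes (median -0.47). Limma called 1 of the 12 (Cd68, lower), or 8.33% against 10.6% of all genes. None of the markers was at 0 in any liver. Their sum ranged from 176.8 to 420.1 CPM in FSH and from 249.2 to 483.9 CPM in saline livers. The ratio of summed C1q chains to summed macrophage markers ranged from 0.3368 to 0.4583 in FSH and from 0.3839 to 0.5227 in saline livers. The part of macrophage transcripts in the C1q values was not tested.

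**Figure D4:**
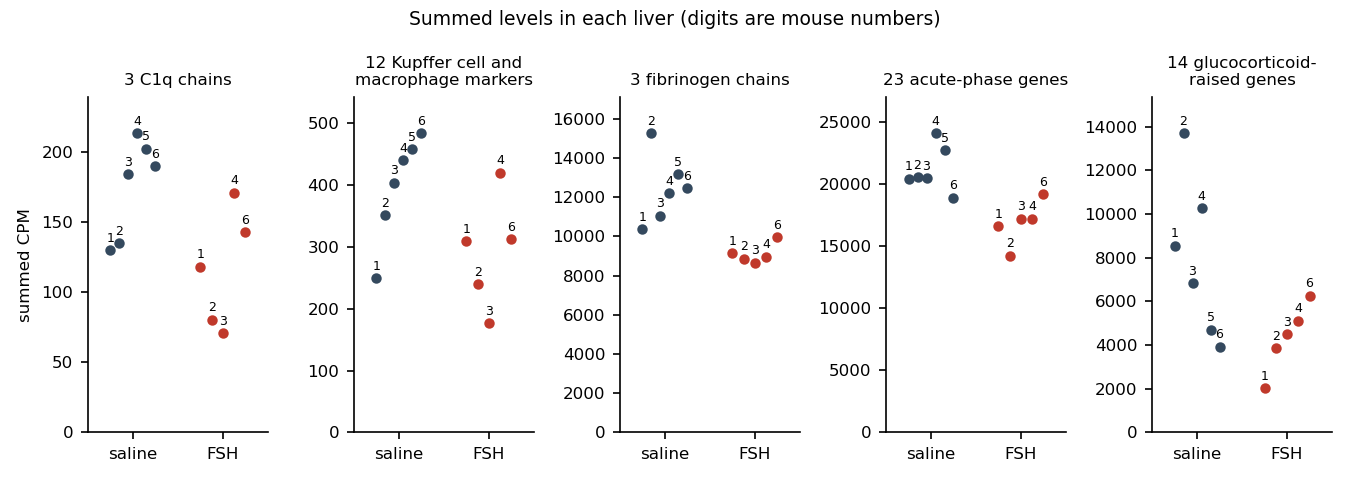
Summed CPM in each liver (points, digits are mouse numbers, linear axes from 0) for the C1q chains, macrophage markers, fibrinogen chains, acute-phase genes and glucocorticoid-raised genes in the saline and FSH groups. The fibrinogen sums do not overlap between the groups, while the other sums do.

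Lists of acute-phase and glucocorticoid-raised genes are set beside these results because fibrinogen and C3 belong to such responses. Of 23 acute-phase genes that are not among the 38 factors, 21 had negative log2 fold changes, with a median of -0.41. At an adjusted p under 0.05 (limma), 9 were lower in FSH livers (39.1%, against 4.41% of all genes) and 0 higher (against 6.19%). Those with the smallest p were Lbp, Saa1 and Hp, with log2 fold changes of -1.01, -1.44 and -0.66. Of 14 glucocorticoid-raised genes, all had negative values, with a median of -0.90. Limma called 6 of them lower (42.9%, against 4.41% of all genes), led by Ppp1r3c, Cdkn1a and Zbtb16. For 4 of the 14 every FSH liver lay below every saline liver, against 2.72% of all genes. Both lists were chosen with earlier results of these data known, so these counts describe the lists and are not a test. Mt2 is in both lists.

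Summed acute-phase genes ranged from 14250 to 19190 CPM in FSH and from 18920 to 24110 CPM in saline livers, overlapping only between FSH mouse 6 and saline mouse 6. The glucocorticoid-raised sum and the fibrinogen sum did not order the livers alike. Summed glucocorticoid-raised genes ranged from 2040 to 6263 CPM in FSH and from 3925 to 13690 CPM in saline livers. Saline mouse 2 had both the highest such sum and the highest fibrinogen sum (15260 CPM). Saline mice 5 and 6, at 4702 and 3925 CPM, lay within the FSH range of the glucocorticoid-raised sum, whereas their fibrinogen sums of 13160 and 12460 CPM were above the FSH maximum of 9958 CPM. The sum is carried by abundant genes that were not called, such as Pck1 and Tat, whereas for Ppp1r3c, Cdkn1a, Zbtb16 and Klf9 all saline livers, mice 5 and 6 included, lay above all FSH livers. The part of either response in the fibrinogen values was not tested. Among 16 hepatocyte transcription factors, limma called 1 higher (Onecut1) and 3 lower (Nr0b2, Hnf4a and Foxa3), or 25% against 10.6% of all genes.

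Markers of other cells in the liver were also examined. As for macrophage markers, most values were negative for sinusoidal endothelial markers (10 of 12, median -0.16) and stellate cell markers (10 of 11, median -0.34). Limma called 1 of the endothelial markers (Lyve1, lower), 2 of the stellate cell markers (Ecm1 and Hand2, lower) and 1 of 6 cholangiocyte markers (Krt7, higher). These were 8.33, 18.2 and 16.7% of the markers tested, against 10.6% of all genes. With 1 or 2 genes in each list, the counts are no result about these cells. Of platelet, of lymphocyte and neutrophil, and of erythroid markers 3, 5 and 5 could be tested, and 0 were called. Of 15 clock genes tested, 6 were higher and 5 lower, or 73.3% called against 10.6% of all genes. For 9 of them the absolute log2 fold change was also over 1, against 1.83% of all genes. Those with the smallest p were Npas2, Dbp and Per3, with log2 fold changes of -3.61, 4.02 and 2.61. These changes were larger in size than that of any factor (at most -0.74). The part of the clock genes and of these cell markers in the values of the factors was not tested.

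Other genes of the same pathways were read from a wider list. Of 25 further coagulation and fibrinolysis genes tested, 1 was higher and 1 lower, and of 23 further complement genes, 3 were higher and 0 lower (limma adjusted p under 0.05). These shares, 8% and 13%, were near the 10.6% of all genes called, so the counts are no result about these lists. F3, tissue factor, the trigger of clotting, rose from 1.42 ± 0.33 CPM in saline (SD, n = 6) to 4.09 ± 1.67 in FSH livers (SD, n = 5), 1.19 on the log2 scale (SE 0.23, limma adjusted p = 0.00404). The groups overlapped for F3. At this low level its estimate ran from 1.01 with a pseudocount of 1 CPM to 1.52 with edgeR, and F3 fell out of the fit with a mean of at least 5 CPM. Hrg, a plasma glycoprotein that binds plasminogen and heparin, fell from 1160 to 926.9 CPM (log2 fold change -0.33, limma adjusted p = 0.0375). The complement genes called were Cd55, which speeds the decay of convertases, and Cd59a and Cd59b, inhibitors that block the pore.

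Cd55 averaged 9.02 CPM in FSH and 6.22 CPM in saline livers (log2 fold change 0.49, limma adjusted p = 0.0282). Cd59b averaged 6.06 and 4.38 CPM (0.43, limma adjusted p = 0.0257) and Cd59a 129 and 105.4 CPM (0.28, limma adjusted p = 0.0497). Cd59a and Cd59b are paralogs, and how reads common to both were counted is not given in the sources used here. F3 kept its call in all 11 fits without a single liver, whereas Cd55, Cd59b, Hrg and Cd59a passed in 7, 6, 3 and 3 of the 11. Cd59a also lost its call with median-ratio scaling (limma adjusted p = 0.107), upper-quartile scaling (0.0815), no intensity trend (0.08), voom (0.111) and edgeR (0.104). Without the filter on low values, Cd55, Cd59a, Cd59b and Hrg all lost theirs (0.0584, 0.0636, 0.0632 and 0.0862), and Hrg also without an intensity trend (0.0552).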

How the data were processed

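Liver RNA was read by RNA-seq in 5 FSH and 6 saline animals. The authors deposited unfiltered CPM values, in which every library sums to 1000000. The submitters' processing notes name FastQC 0.11.2, Trim Galore 0.3.3, cutadapt, STAR, RSEM and the build mm10, and the annotation and strand setting are not given in the sources used here. Whole reads were recovered from the deposited CPM for 100% of values (tolerance 0.1 read). Gene symbols, positions and exon lengths were taken from GENCODE M21 (GRCm38) by identifier, which named 35555 of 36788. Promoter windows came from RefSeq.

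limma 3.58.1 (R 4.3.3; eBayes with trend, Benjamini-Hochberg adjustment, no covariates) compared log2(CPM + 0.5) between the groups for genes averaging 0.5 CPM or more. Fold changes are on that scale, which understates changes of low genes. Single factors were tested with two-sided exact permutation tests over 462 splits. Alternatives were other pseudocounts, filters and scalings, array weights, a fit with no trend, a replicate block, each library left out, voom, and edgeR 4.0.16 on recovered reads. The fits were tested on simulated data.

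The factors and lists (acute-phase, glucocorticoid-raised, hepatocyte transcription factor, clock and cell type genes, and other coagulation and complement genes) were chosen with earlier results of these data known. All factors were to be given with group means, with library values for factors past an adjusted p of 0.05 and for the 2 most abundant per kilobase of each class. In the larger saline group these are printed as lowest, median and highest. Of the other pathway genes those past the threshold were named (at most 10), and of the remaining lists up to 3 genes by smallest p where a result is set beside them. The values of C1qa in single livers, and Klf9, Pck1, Tat and genes named from the cell type lists, were added after the values were seen.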

Additional observations from a re-analysis of the deposited data

Results flagged for a closer look

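Of 76 groups of values examined (38 factors in each treatment group), 6 held a liver that stood apart from the rest of its group by Dixon's criterion, which chance meets in about 1 of 20 groups. For C3, FSH mouse 6 was at 6781 CPM while the other FSH livers lay between 4249 and 4867 CPM. For F12, the same mouse was at 871.6 CPM beside 671 to 727.7 CPM. For Fga, saline mouse 2 was at 5390 CPM beside 3299 to 4037 CPM. For F2, saline mouse 5 was at 2521 CPM beside 2857 to 3037 CPM. For F9, FSH mouse 2 was at 195.8 CPM beside 169.7 to 175.9 CPM. For Masp2, saline mouse 3 was at 246.2 CPM beside 227.5 to 232.6 CPM. Apart from Fga, none of these factors passed the test between the groups, and Fga passed with and without saline mouse 2.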

How the results depend on the processing

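No called factor changed sign under any setting tried, while 12 factors that were not called did in at least 1. Without a filter on low values, 1 factor (Mbl1, lower) and 1 other pathway gene passed. Without an intensity trend 3 other pathway genes passed, in place of 5. With the replicate block on the 5 mouse numbers both groups share, 6 factors, all lower, 1210 genes in all and 1 other pathway gene passed. Those 6 lacked Fgb (adjusted p = 0.0814) and C8a (0.0579) and held C3 (0.041) and C1qa (0.025) in their place. Cd55 (0.0551), Cd59b (0.0528), Cd59a (0.0568) and Hrg (0.0773) also lost their calls under the block. Without a block on the same 10 livers, which is the fit without saline mouse 5, 2 factors, both lower, and 3 other pathway genes passed (an alternative added after the data were seen). Same-numbered livers correlated at -0.066 to 0.356 and matched best for number 2 only, so the number was not taken as a pairing. Leaving out single livers gave 2 to 7 called factors (all lower), 803 to 1659 called genes and 1 to 7 other pathway genes. Only 2 factors were called without FSH mouse 1, FSH mouse 3 or saline mouse 5, and the lowest count of all genes, 803, came without FSH mouse 1. Mbl1 passed in 22 of 22 distinct settings, Fgg in 21, Fga in 16, C8a in 15, Fgb in 14 and C8b in 12. C1qa passed in 7 and C3 in 5. Other scalings shifted the median of all genes by -0.027 and -0.016. With voom, or with a mean of at least 5 CPM, 8 factors passed. The cause of these differences was not tested. Depth limits Tfpi, Vwf and F8 most, at 27 to 119 reads per library.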
